A study of Rattus norvegicus with 15 samples.

Results

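The endothelin and angiotensin systems, which supply the main constrictor peptides of the vessel wall, were followed through birth in the rat ductus arteriosus and aorta. The group was given as 6 genes by name, Edn1, Ednrb, Ece1, Agtr1a, Agtr2 and Ace, and each was read at every probe set whose annotation names that gene alone. This gave 11 of the 26202 probe sets on the chips, for 5 of the 6 genes and of 10969 named genes in all. No probe set carried the name of Ednrb, an endothelin receptor, so this gene was not analysed here.

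The ductus arteriosus is the fetal channel between the pulmonary artery and the aorta, and it closes after birth. RNA came from 5 states, with a single array on each of 3 rat Affymetrix chips, called A, B and C, which makes 15 arrays. The fetal ductus and the fetal aorta (arch and thoracic part) were taken at day 19 of gestation by caesarean section from dams in normal air. The oxygen ductus came from fetuses of day 19 after 3 h in which the dam breathed 100% oxygen, and the newborn ductus and newborn aorta from pups 3 h after vaginal delivery. Fetal vessels were dissected in medium gassed with 2.5% oxygen and newborn vessels in medium with 12.5%. A ratio of newborn to fetal or oxygen-exposed vessels thus also compares different media. This, and the route of delivery, cannot be told apart from birth in what is called a birth ratio or birth effect below. In 1 newborn aorta array the title dates the 3 h to coitum, against a description that says newborn, and the description was followed. On chips B and C the state was taken from the title, since most descriptions there cover several states. The labels give no strain, no sex and no number of animals per array.

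Endothelin is made as a long precursor by Edn1, mainly in endothelial cells, and Ece1 encodes the enzyme that cuts its intermediate to the active constrictor. Its receptors on smooth muscle constrict, whereas Ednrb on endothelium releases dilators. In the angiotensin system Ace, on the endothelial surface, makes angiotensin II, which constricts through the AT1 receptor (Agtr1a) and acts through the AT2 receptor (Agtr2) in ways that often oppose AT1. AT2 is known for high levels in fetal mesenchyme and vessels and a fall after birth. Endothelin has been studied as a mediator of the constriction of the ductus by oxygen.

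Values are signal intensities on a linear scale. A signal under the chip's median over all 5 arrays (150 for A, 242 for B and 243 for C) was set to that floor before ratios were taken, and a fold against the floor is a lower bound. With 1 array per state and chip, a ratio of 2 states compares 2 arrays and has no replicate check, and the number of arrays limits the precision. The standard deviation expected of the log2 ratio of an unchanged probe set was put at 0.22 to 0.40 over chips and signal levels, and at 0.33 for Edn1, 0.22 for Ece1, 0.28 for Agtr1a and for Agtr2, and 0.38 for Ace at their brightest probe sets. This estimate comes from the difference between the birth ratios of the vessels, so it also holds any true difference of that kind. Of the tissue markers, all 8 smooth muscle genes on the chips were above the floor in every state, and so were 12 to 14 of 15 endothelial genes. The summed signal of heart muscle markers ranged from 7594 in the newborn ductus to 24332 in the fetal ductus. That of fat markers was 8210 in the newborn aorta and 448 to 892 in the other states, and that of erythroid markers was 26302 in the fetal aorta and 9681 to 10498 elsewhere. The oxygen ductus arrays had the lowest median signals on each chip, 126 on chip A against 151 to 163. How far these differences in content and brightness enter the ratios below was not tested. In whole vessels, more cells of a type and more RNA per cell cannot be told apart.

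The sequences before the annotated starts of 4 of the genes are shown, since Edn1, Ace and Agtr1a were all higher in the newborn than in the fetal ductus while Agtr2 was the gene that stood highest in the fetal aorta. All 6 genes had a promoter entry. Each is 250 bases in reading direction up to the annotated start, from RefSeq on build GRCr8. Edn1 lies at chr17:22666688-22666937, Ace at chr10:91409879-91410128, Agtr1a at chr17:34435433-34435682 and Agtr2 at chrX:116914070-116914319. Edn1 and Agtr1a lie on the minus strand and Ace and Agtr2 on the plus strand. Capitals mark matches on either strand to 5 motifs, none of which overlapped another. These were the TATA box, searched as TATAAA, the site of GATA factors, searched as AGATAA, and an AP-1-like site, searched as TGACTNA. The others were the core of the hypoxia response element, searched as ACGTG, and a glucocorticoid receptor site, searched as TGTTCT.
Edn1: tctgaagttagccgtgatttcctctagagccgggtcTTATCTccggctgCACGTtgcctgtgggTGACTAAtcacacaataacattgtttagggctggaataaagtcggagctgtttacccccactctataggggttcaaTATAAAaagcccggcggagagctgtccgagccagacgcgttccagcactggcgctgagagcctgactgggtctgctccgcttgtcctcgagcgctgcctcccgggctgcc
Ace: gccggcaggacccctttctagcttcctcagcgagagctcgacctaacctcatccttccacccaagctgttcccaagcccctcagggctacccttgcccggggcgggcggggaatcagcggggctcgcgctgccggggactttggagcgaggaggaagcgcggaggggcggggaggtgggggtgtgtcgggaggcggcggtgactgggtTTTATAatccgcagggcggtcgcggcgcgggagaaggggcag
Agtr1a: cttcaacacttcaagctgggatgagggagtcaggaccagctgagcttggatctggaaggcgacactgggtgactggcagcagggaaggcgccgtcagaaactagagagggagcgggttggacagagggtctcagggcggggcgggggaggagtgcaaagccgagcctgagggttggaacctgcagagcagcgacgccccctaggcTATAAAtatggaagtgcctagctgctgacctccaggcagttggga
Agtr2: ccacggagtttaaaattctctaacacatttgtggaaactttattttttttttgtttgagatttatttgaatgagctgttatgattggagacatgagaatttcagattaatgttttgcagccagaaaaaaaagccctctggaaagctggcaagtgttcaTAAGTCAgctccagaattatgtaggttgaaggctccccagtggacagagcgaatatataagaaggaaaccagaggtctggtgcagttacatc
The Edn1 window held 1 match each to the TATA, GATA, AP-1-like and hypoxia letters, with the TATA match at -110 to -105 from the annotated start and the hypoxia core at -201 to -197. Agtr1a had a TATA match at -45 to -40, and Ace one on the other strand at -42 to -37. The single match in Agtr2 was to the AP-1-like letters. Of 33469 promoter windows of this length, 12.9% held the TATA letters, 10.3% the GATA letters, 11.5% the AP-1-like letters, 16.6% the hypoxia core and 17.5% the glucocorticoid letters. The last were found in none of the 6 windows, which says only that these letters are not in them, and the windows of Ednrb and Ece1 held no match to any of the 5 motifs.

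**Figure D1:**
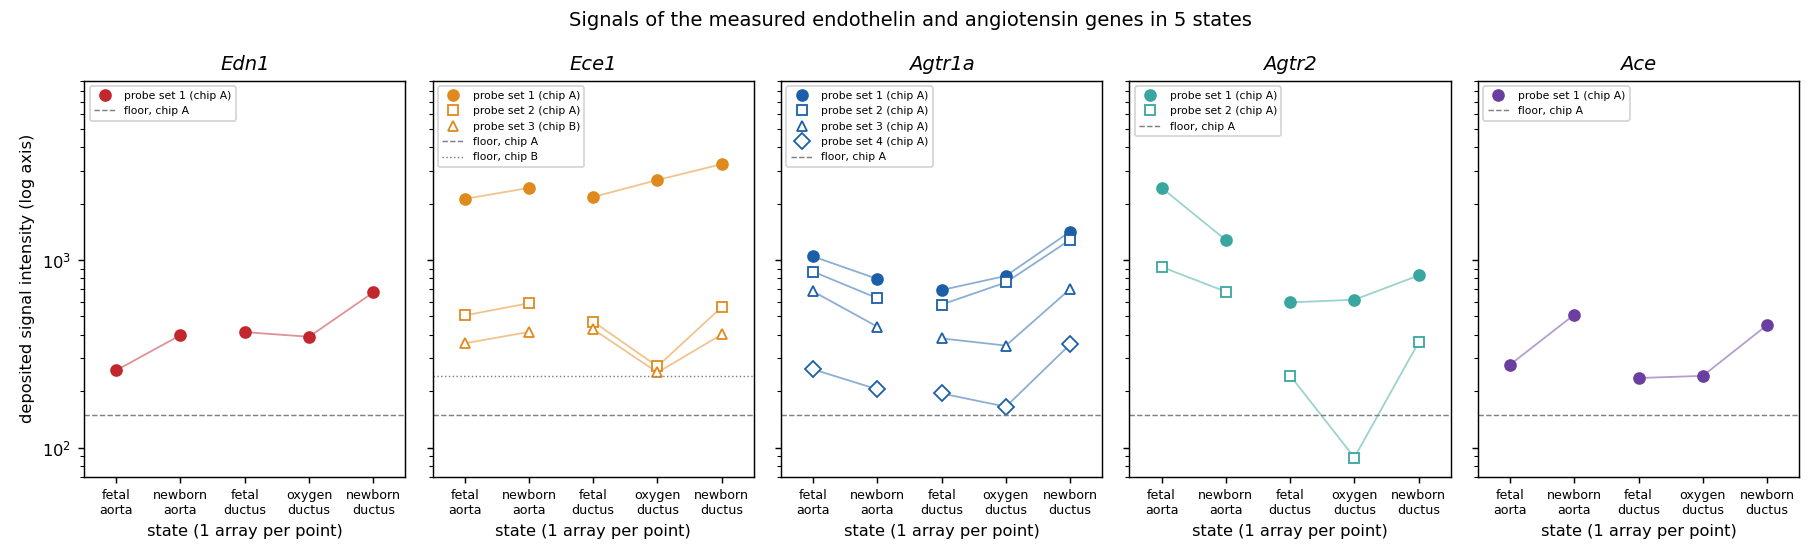
Deposited signal intensity (log axis) of each probe set of the 5 measured genes in the 5 states, 1 array per point, with the floor of the chip as a grey line; filled symbols are the brightest probe set of a gene. Edn1 is highest in the newborn ductus at 672, all 4 Agtr1a probe sets peak in the newborn ductus, and Agtr2 is highest in the fetal aorta at 2428.

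Edn1, the endothelin-1 precursor gene, was higher in the ductus than in the aorta at both stages and higher in newborns than in fetuses in both vessels. Its signal was 258 in the fetal aorta, 397.5 in the newborn aorta, 413 in the fetal ductus, 390 in the oxygen ductus and 672 in the newborn ductus. The newborn ductus thus stood highest and the fetal aorta lowest, while the newborn aorta, fetal ductus and oxygen ductus lay within the estimated error of each other. The fetal ductus was 1.60-fold above the fetal aorta (log2 ratio 0.68) and the newborn ductus 1.69-fold above the newborn aorta (0.76). At birth Edn1 differed by 0.70 in the ductus (1.63-fold) and by 0.62 in the aorta (1.54-fold), which is nearly the same step in each vessel. With no floor the aorta value was 0.54, under 1.5-fold. An additive fit of vessel and stage with limma over the 4 fetal and newborn arrays without oxygen gave a vessel effect of 0.72 (SE 0.19, adjusted p = 0.308) and a birth effect of 0.66 (SE 0.19, adjusted p = 0.114). Neither passed the threshold of 0.05.

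Ece1, the endothelin-converting enzyme, gave no common answer over its 3 probe sets. The brightest, on chip A, read 2117 in the fetal aorta, 2422 in the newborn aorta, 2169 in the fetal ductus, 2671 in the oxygen ductus and 3243 in the newborn ductus. By this probe set the newborn ductus was highest, 1.5-fold above the fetal ductus (log2 ratio 0.58, just short of the 1.5-fold line) and 1.34-fold above the newborn aorta. The second probe set, also on chip A, read 506, 588.5, 469, 271 and 561 in the same order, with the oxygen ductus lowest. The third, on chip B, read 359, 413.5, 427, 251 and 401, again with the oxygen ductus lowest. Birth ratios in the aorta were alike at 0.19 to 0.22 in all 3, but in the ductus they ran from -0.09 to 0.58. Newborn ductus against newborn aorta likewise gave 0.42 at the brightest and -0.07 and -0.04 at the others. In limma the brightest probe set had a birth effect of 0.39 (SE 0.20, adjusted p = 0.362) and a vessel effect of 0.23 (SE 0.20, adjusted p = 0.951).

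Of 7 other endothelin genes (Edn2, Edn3, Ednra, Ece2, Ecel1, Kel and Mme), 6 were on the chips and 3 were above the floor in any state. The receptor Ednra had no probe set of its own. Ece2, a relative of Ece1, and Mme, the peptidase neprilysin that degrades both endothelin and natriuretic peptides, are named although they were picked out after their values were seen. Mme read 593 in the fetal aorta, 441.5 in the newborn aorta, 389 in the fetal ductus, 304 in the oxygen ductus and 119 in the newborn ductus, under its floor. In the newborn ductus it was therefore at least 1.60-fold below the fetal ductus and at least 1.82-fold below the newborn aorta. Ece2 was 1.66-fold lower in the newborn than in the fetal ductus (325 against 541) and 1.06-fold higher in the newborn than in the fetal aorta (481 against 454).

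Ace, the angiotensin-converting enzyme, differed with birth in both vessels by nearly the same amount and little between vessels. Its signal was 276.5 in the fetal aorta and 511 in the newborn aorta, and 235 in the fetal ductus, 241 in the oxygen ductus and 450 in the newborn ductus. Both newborn states stood above all 3 fetal ones, and the oxygen ductus lay beside the fetal ductus. The birth ratio was 1.92-fold in the ductus (log2 0.94) and 1.85-fold in the aorta (0.89). Between vessels the log2 ratio was -0.24 in the fetus and -0.18 in the newborn, inside the estimated error. Limma gave a birth effect of 0.91 (SE 0.19, adjusted p = 0.0535), which missed the threshold, and a vessel effect of -0.21 (SE 0.19, adjusted p = 0.960). The adjusted p of the birth effect ran from 0.0335 to 0.383 over 12 settings of that fit. A further probe set is assigned to Ace together with another gene and was left out.

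Agtr1a, the AT1 receptor gene, was higher in the newborn than in the fetal ductus and lower in the newborn than in the fetal aorta. Its brightest probe set read 1044 in the fetal aorta, 792.5 in the newborn aorta, 692 in the fetal ductus, 823 in the oxygen ductus and 1418 in the newborn ductus. The newborn ductus was thus the highest state and the fetal ductus the lowest. The second probe set read 867, 626, 579, 759.5 and 1282 in the same order. The third read 680, 441, 382, 350 and 701, and the fourth 261, 204.5, 194, 165 and 355. All 4 had their highest signal in the newborn ductus, and in all 4 the fetal aorta stood above both the newborn aorta and the fetal ductus. They are 4 readings of the same RNA and not replicates of a state.

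Against the fetal ductus the newborn ductus was 2.05-fold higher in Agtr1a at the brightest probe set (log2 1.04), and 0.87 to 1.15 over the 4 in log2. In the aorta the newborn was lower than the fetus by 1.32-fold (log2 -0.40, and -0.62 to -0.35 over the 4). The vessel ratio therefore changed sign, with the ductus 1.51-fold below the aorta in the fetus (-0.59) and 1.79-fold above it in the newborn (0.84). The fetal value lay close to 1.5-fold and was under it with no floor (-0.56) and with arrays at a common median (-0.48). The difference between the birth ratios of ductus and aorta was 1.43 in log2, as high or higher in 38 of 7278 genes compared in both vessels. With 1 array per state this difference has no test. Limma's additive fit takes it as error, and gave a vessel effect of 0.12 (SE 0.32, adjusted p = 0.995) and a birth effect of 0.32 (SE 0.32, adjusted p = 0.662).

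The rat has a near-identical AT1 gene, Agtr1b, and 2 of the Agtr1a probe sets are of a design that may also bind related transcripts, so a share of their signal could come from Agtr1b, which was not tested. Its own brightest probe set read 277 in the fetal aorta, 238 in the newborn aorta, 178 in the fetal ductus, 137 in the oxygen ductus and 219 in the newborn ductus. All 4 probe sets of Agtr1b are of a family design, so its signal may likewise hold other transcripts. It was highest in the fetal aorta, whereas Agtr1a was highest in the newborn ductus, and the oxygen ductus was under the floor. The signs of its other ratios were those of Agtr1a between the fetal vessels (-0.63) and for birth (ductus 0.29, aorta -0.21), but not between the newborn vessels (-0.12). The values of -0.21 and -0.12 were smaller than the lowest estimated error of 0.22. Another Agtr1b probe set read 180 in the newborn ductus and 141, under the floor, in the newborn aorta, which is the sign of Agtr1a. The remaining Agtr1b probe sets were under the floor in both newborn vessels.

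Agtr2, the AT2 receptor gene, was lower in the ductus than in the aorta at both stages, and between the fetal vessels it was the member with the largest difference. The brightest probe set read 2428 in the fetal aorta, 1278 in the newborn aorta, 594 in the fetal ductus, 614 in the oxygen ductus and 827 in the newborn ductus. The second read 919, 678, 242, 88.5 and 364 in that order. Both are of the design that may also bind related transcripts, which was not tested. In both, each aorta state lay above every ductus state. The fetal ductus was 4.09-fold lower than the fetal aorta at the first (log2 -2.03) and 3.79-fold lower at the second (-1.92). In newborns the gap was 1.55-fold (-0.63) and 1.86-fold (-0.90). Only 0.0263% of the 7610 genes compared between fetal vessels had a lower ratio than the first probe set.

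The smaller gap after birth came with a lower signal in the aorta and a higher one in the ductus. Newborn against fetal aorta was 1.90-fold lower at the first probe set (-0.93) and 1.35-fold lower at the second (-0.44). Newborn against fetal ductus was 1.39-fold higher (0.48) and 1.5-fold higher (0.59). The difference of these birth ratios was 1.40 at the first, as high or higher in 44 of 7278 genes. At the second it was 1.025, for which no rank was taken. The difference was not tested at either probe set. In limma the vessel effect was -1.33 (SE 0.32, adjusted p = 0.243) at the first and -1.41 (SE 0.27, adjusted p = 0.163) at the second, both short of the threshold. Over 12 settings of that fit the adjusted p of the first ran from 0.0241 to 1.0.

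Since Agtr1a and Agtr2 are often weighed against each other, their log2 ratios were also set side by side, without comparing their levels. From the fetal aorta to the fetal ductus Agtr1a was lower by 0.59 and Agtr2 by 2.03, a relative difference of 1.44 in favour of Agtr1a. In newborns this relative difference was 1.47, with Agtr1a higher in the ductus and Agtr2 lower. With birth it was 0.56 in the ductus, where both were higher, and 0.53 in the aorta, where both were lower. All these values are of the brightest probe sets. At the second Agtr2 probe set the birth ratio in the aorta was -0.44, inside the range of -0.62 to -0.35 over the 4 Agtr1a probe sets. The relative difference in the aorta thus rests on the first Agtr2 probe set.

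**Figure D2:**
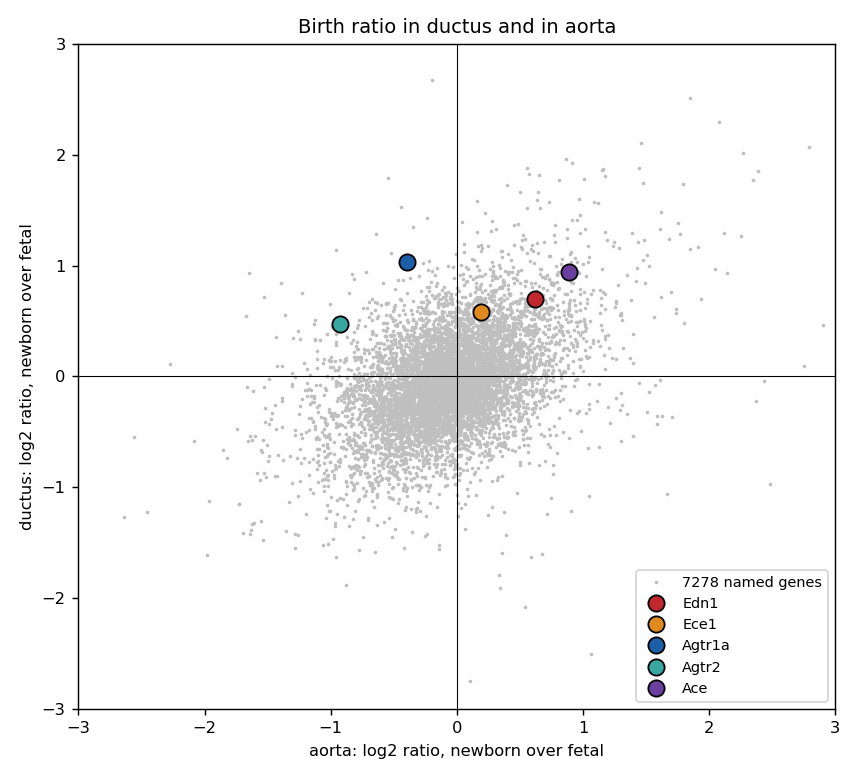
Birth ratio (log2 of newborn over fetal signal) in the aorta (horizontal) and the ductus (vertical) for 7278 named genes at their brightest probe sets, grey, with the 5 measured members in colour; 5 genes lie outside the axes. Agtr1a and Agtr2 lie in the upper left, higher in the ductus and lower in the aorta, and Edn1, Ece1 and Ace in the upper right.

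Read as a group, the members were counted at 1.5-fold against all genes. In the newborn against the fetal ductus 3 of 5 members (Edn1, Agtr1a and Ace) were at least 1.5-fold higher and 0 lower, where 7.56% of 7551 genes were higher and 9.59% lower. Their median log2 ratio was 0.70, beside -0.05 for all genes. In the newborn against the fetal aorta 2 were higher (Edn1 and Ace) and 1 lower (Agtr2), beside 7.57% and 11.0% of 7676 genes, and the median was 0.19 against -0.05. Between the fetal vessels 1 was higher in the ductus (Edn1) and 2 lower (Agtr1a and Agtr2), beside 4.2% and 5.1% of 7610 genes. Between the newborn vessels 2 were higher in the ductus (Edn1 and Agtr1a) and 1 lower (Agtr2), beside 6.16% and 5.98% of 7528 genes. Comparisons that have an array in common are linked by it. At 2-fold there was 1 member in each of 2 comparisons, Agtr2 between the fetal vessels (beside 1.92% of genes either way) and Agtr1a with birth in the ductus (3.52%). There were 0 between the newborn vessels (2.43%), with birth in the aorta (4.83%), with oxygen (1.34%) and between newborn and oxygen ductus (5.83%). By limma, 0 of 5 members passed an adjusted p under 0.05 for vessel, beside 0.0362% of 13810 probe sets, and 0 of 5 for birth, beside 1.69%. At an unadjusted p under 0.05 there were 2 for vessel (Edn1 and Agtr2, beside 7.75%) and 2 for birth (Edn1 and Ace, beside 18.6%).

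**Figure D3:**
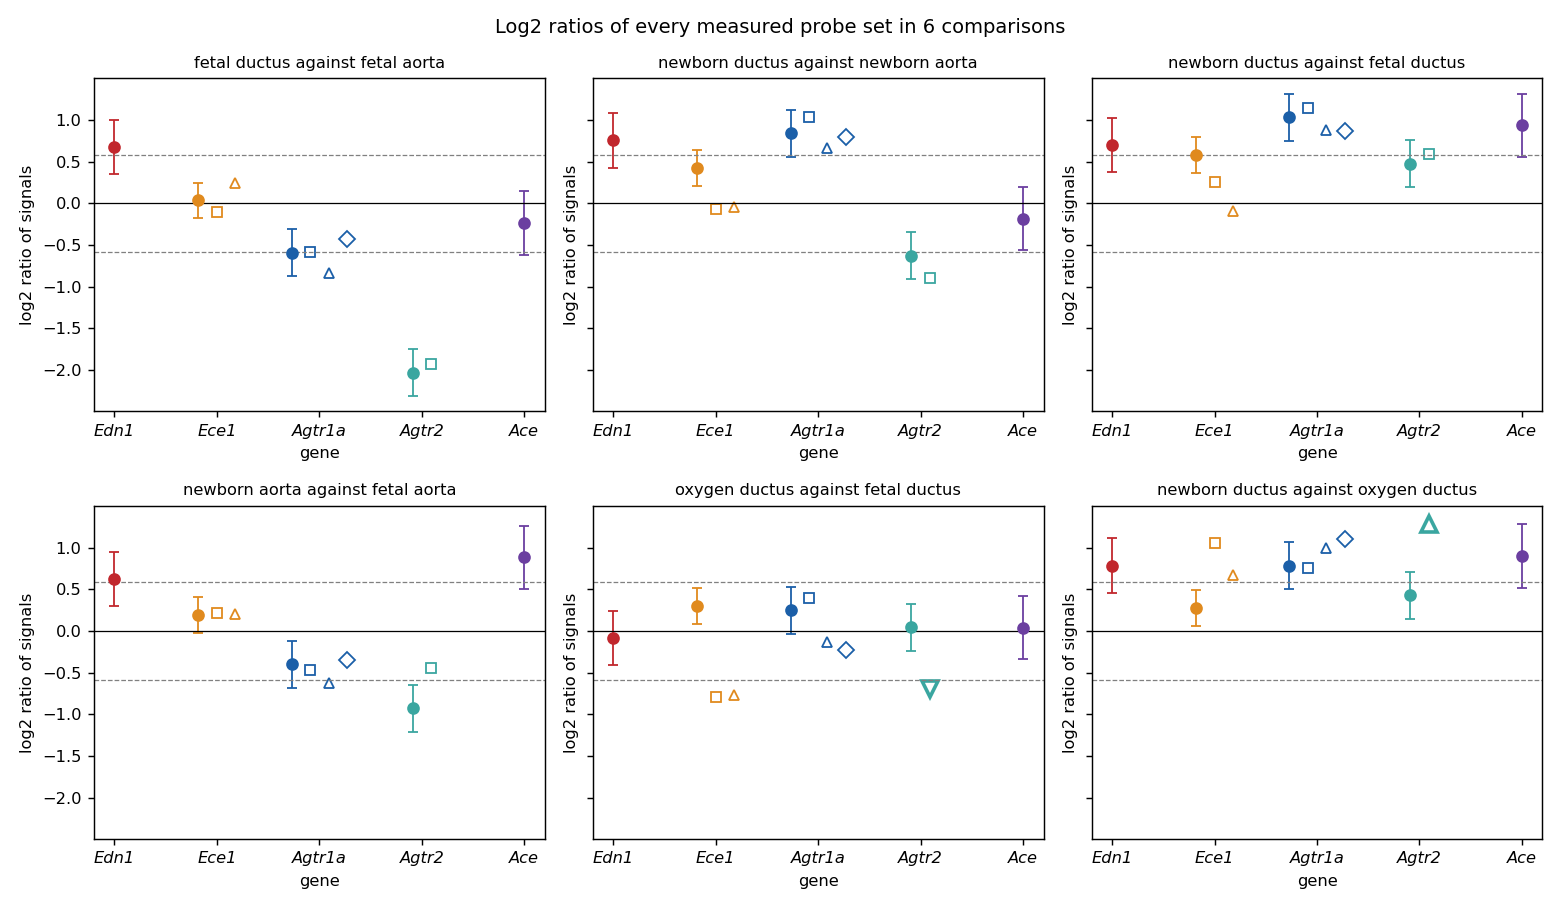
Log2 ratios of all 11 probe sets in the 6 comparisons; filled points are the brightest probe set of a gene with a bar of 1 estimated standard deviation of an unchanged ratio either way, open points are other probe sets, large open triangles are lower bounds, and dashed lines mark 1.5-fold. Agtr2 is 4.09-fold lower in the fetal ductus, and the probe sets of Ece1 split in the oxygen comparison.

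After 3 h of oxygen breathing by the dam, the members read close to the fetal ductus at their brightest probe sets with the deposited scaling. At the brightest probe sets 0 of 5 were at least 1.5-fold higher or lower in the oxygen than in the fetal ductus, beside 4.44% and 5.38% of 7457 genes. The log2 ratios were -0.08 for Edn1, 0.30 for Ece1, 0.25 for Agtr1a, 0.05 for Agtr2 and 0.04 for Ace. Other probe sets differed from these. The other 2 of Ece1 were 1.73-fold and 1.70-fold lower, the other 3 of Agtr1a lay between -0.23 and 0.39, and the second of Agtr2 was under the floor, at least 1.62-fold lower. When the arrays were scaled to a common median the oxygen arrays gained, which moved the median of all genes by 0.17, and the share of calls that were higher went from 45.2% to 81.8%. At a common median the log2 ratios were 0.56 for Ece1, 0.51 for Agtr1a, 0.31 for Agtr2 and 0.30 for Ace, all still under 1.5-fold. The sign of the Edn1 ratio turned with that scaling (0.18) and with quantile normalization (0.03), and the mean of the probe sets turned that of Ece1 (-0.42) and of Agtr2 (-0.32).

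Against the oxygen ductus the newborn ductus was higher in all 5 members and all 11 probe sets. Edn1 was 1.72-fold higher, Agtr1a 1.72-fold, Ace 1.87-fold, Agtr2 1.35-fold and Ece1 1.21-fold. At least 1.5-fold were 3 of 5, beside 10.5% of 7534 genes higher and 14.5% lower. With arrays at a common median this count was 1, beside 512 of 7660 genes higher and 1724 lower. There Ece1 stood at -0.02, and calls that were higher went from 42.0% to 22.9% of all calls. Averaging the probe sets of a gene raised the count to 5, for which no share of all genes was taken. The members gained were Ece1 and Agtr2, and the second Agtr2 probe set was under the floor in the oxygen ductus.

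Among 18 further genes of the angiotensin system, 15 were on the chips and 14 could be compared in most pairs. In the fetal ductus against the fetal aorta 0 were at least 1.5-fold higher and 4 lower, beside 4.2% and 5.1% of all genes, with a list median of -0.06. The largest were Cma1, a mast cell chymase, 3.42-fold lower (203 against 695), and Cpa3, the mast cell carboxypeptidase, at least 3.12-fold lower (70.4 against 467). Between newborns Cma1 was likewise 2.39-fold lower in the ductus (327 against 780), and it was at least 2.18-fold higher in the newborn than in the oxygen ductus. Both genes also stand on the mast cell list, whose summed signal was 2260 and 2470 in the fetal and newborn aorta and 1158, 838 and 1550 in the fetal, oxygen and newborn ductus. Of its 6 markers, Fcer1a and Kit were under the floor in all 5 states. The newborn against the fetal ductus gave 3 higher and 0 lower of 14 (median -0.05), beside 7.56% and 9.59%, and the newborn against the fetal aorta 1 higher and 0 lower (median -0.12), beside 7.57% and 11.0%. The oxygen ductus against the fetal ductus gave 0 higher and 2 lower of 13, beside 4.44% and 5.38%. No gene of this list passed limma for vessel or birth, of 14 fitted, beside 0.0362% and 1.69% of all probe sets fitted.

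Downstream of both constrictor receptors, 28 of 31 genes of G proteins, phospholipase C, kinases and their regulators were on the chips. In the newborn against the fetal ductus 6 of 20 were at least 1.5-fold higher and 0 lower (median 0.34), where 7.56% and 9.59% of all genes were. In the aorta it was 6 of 22 and 0 (median 0.14), where 7.57% and 11.0% of all genes were. Rgs5, a regulator that shortens Gq signals and is typical of pericytes and arterial smooth muscle, read 2009 in the fetal aorta, 7567 in the newborn aorta, 9334 in the fetal ductus, 12081 in the oxygen ductus and 20994 in the newborn ductus. It was lowest in the fetal aorta and highest in the newborn ductus, as Edn1 was. Ppp1r14a, an inhibitor of myosin phosphatase, was 2.04-fold higher in the newborn than in the fetal aorta (3757 against 1844). Ppp1r12a, the targeting subunit of that phosphatase, was 2.39-fold higher in the newborn than in the oxygen ductus (1256.5 against 526).

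Other constrictor receptors were mostly near the floor, with 7 of 12 above it in any state. Of the 5 compared between newborn and fetal ductus 0 were at least 1.5-fold apart (median 0.05), beside 7.56% of all genes higher and 9.59% lower. Ptgfr, the prostaglandin F receptor, was 2.22-fold lower in the newborn than in the fetal aorta (157.5 against 349). On the list of dilator peptides, nitric oxide and kinin genes 2 of 12 were higher and 1 lower in the newborn than in the fetal ductus (median 0.25), beside 7.56% and 9.59% of all genes. Ramp1, a partner of the receptor for the dilator peptide CGRP, read 1481 in the fetal aorta, 3782 in the newborn aorta, 1468 in the fetal ductus, 2563 in the oxygen ductus and 2768 in the newborn ductus. Its limma birth effect was 1.13 (SE 0.23, adjusted p = 0.0356), the single call among 11 fitted, beside 1.69% of all probe sets fitted. Nppa, the atrial natriuretic peptide precursor, was at least 4.21-fold higher in the ductus among fetal vessels (630 against 9.7). It stands also on the heart muscle list, whose 9 genes were all at least 1.5-fold higher in that comparison, beside 4.2% of all genes. Between the newborn vessels Nppa was at least 2.90-fold higher in the ductus (435 against 15.5). There 6 of 8 heart genes were at least 1.5-fold lower (list median -0.78), beside 5.98% of all genes. In the oxygen ductus Nppa was 2.05-fold above the fetal ductus, with a heart list median of -0.36, and 2.97-fold above the newborn ductus. Gucy1b1, a subunit of the nitric oxide receptor, was 2.01-fold lower in the newborn than in the oxygen ductus (648 against 1304).

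Edn1 and Ace are endothelial genes, so the endothelial markers are given beside them. In the newborn against the fetal ductus 7 of 13 endothelial genes were at least 1.5-fold higher and 0 lower (7.56% and 9.59% of all genes), with a median of 0.61 beside 0.70 for Edn1 and 0.94 for Ace. In the aorta 5 of 14 were higher and 1 lower (7.57% and 11.0% of all genes), with a median of 0.39 beside 0.62 and 0.89. Summed over 15 genes the endothelial signal was 12092 in the fetal and 17076 in the newborn aorta, and 11220 in the fetal, 11670 in the oxygen and 17036 in the newborn ductus. Between vessels the picture was different, since the list stood at -0.22 in the fetus and -0.11 in the newborn, as Ace did, while Edn1 was at 0.68 and 0.76. The smooth muscle markers had medians closer to Edn1 between vessels, 0.69 in the fetus and 0.88 in the newborn. With birth their medians were 0.62 in the ductus and 0.47 in the aorta, beside 0.70 and 0.62 for Edn1. Those of the endothelial list, 0.61 and 0.39, were much alike, so the birth ratios hardly separate the lists. Thbd, thrombomodulin, was the one endothelial gene at least 2-fold higher in the fetal ductus (2.27-fold). Egfl7 was 2.20-fold higher in the newborn than in the fetal ductus, and Thbd (2.61-fold) and Tie1 (2.02-fold) in the newborn than in the fetal aorta. Kdr was under the floor in all 5 states. Selp, P-selectin, was 2.41-fold higher in the newborn than in the oxygen ductus, where Egfl7 (2.12-fold) and Thbd (2.04-fold) were also higher. The part of endothelial or smooth muscle content in the Edn1 and Ace ratios was not tested.

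Agtr1a is a smooth muscle gene in adult vessels, and the smooth muscle markers are given beside it. Their median was 0.62 with birth in the ductus, where 6 of 8 were at least 1.5-fold higher, beside 7.56% of all genes. For the aorta it was 0.47, with 3 of 8 higher, beside 7.57% of all genes. The same 2 ratios of Agtr1a were 1.04 and -0.40. Between vessels the marker median was 0.69 in the fetus and 0.88 in the newborn, beside -0.59 and 0.84 for Agtr1a. Actg2, the enteric smooth muscle actin, was 2.06-fold higher in the ductus between fetal and 2.42-fold between newborn vessels. Des, desmin, was 2.62-fold higher in the fetal ductus than aorta, and with birth 3.42-fold higher in the ductus and 5.10-fold in the aorta. It was also 2.08-fold higher in the newborn than in the oxygen ductus. Des was the one marker of the 8 to pass limma for birth (effect 2.06, SE 0.22, adjusted p = 0.00779), and 0 passed for vessel. Of all probe sets fitted 1.69% passed for birth and 0.0362% for vessel. Agtr1a and the median of the markers thus had the same sign in the newborn ductus and opposite signs in the fetal vessel comparison and with birth in the aorta. Fibroblast markers, of which all 6 were above the floor in all states, had medians of -0.20 between fetal vessels, 0.34 between newborn vessels, 0.28 with birth in the ductus and -0.31 with birth in the aorta, beside -0.59, 0.84, 1.04 and -0.40 for Agtr1a. These medians are about as large as the estimated error of 1 ratio, but the error of a median of 6 genes was not estimated. The 4 comparisons have arrays in common. Each fibroblast gene was lower in the ductus than in the aorta in the fetus (-0.57 to -0.17) and higher in the newborn (0.07 to 0.47). With birth the 6 fibroblast genes did not all run one way, as Pdgfra was at -0.54 in the ductus, and Col3a1 at 0.11 and Dpt at 0.29 in the aorta, where Pdgfra was 2.06-fold lower. The part of fibroblast or smooth muscle content in the receptor ratios was not tested.

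**Figure D4:**
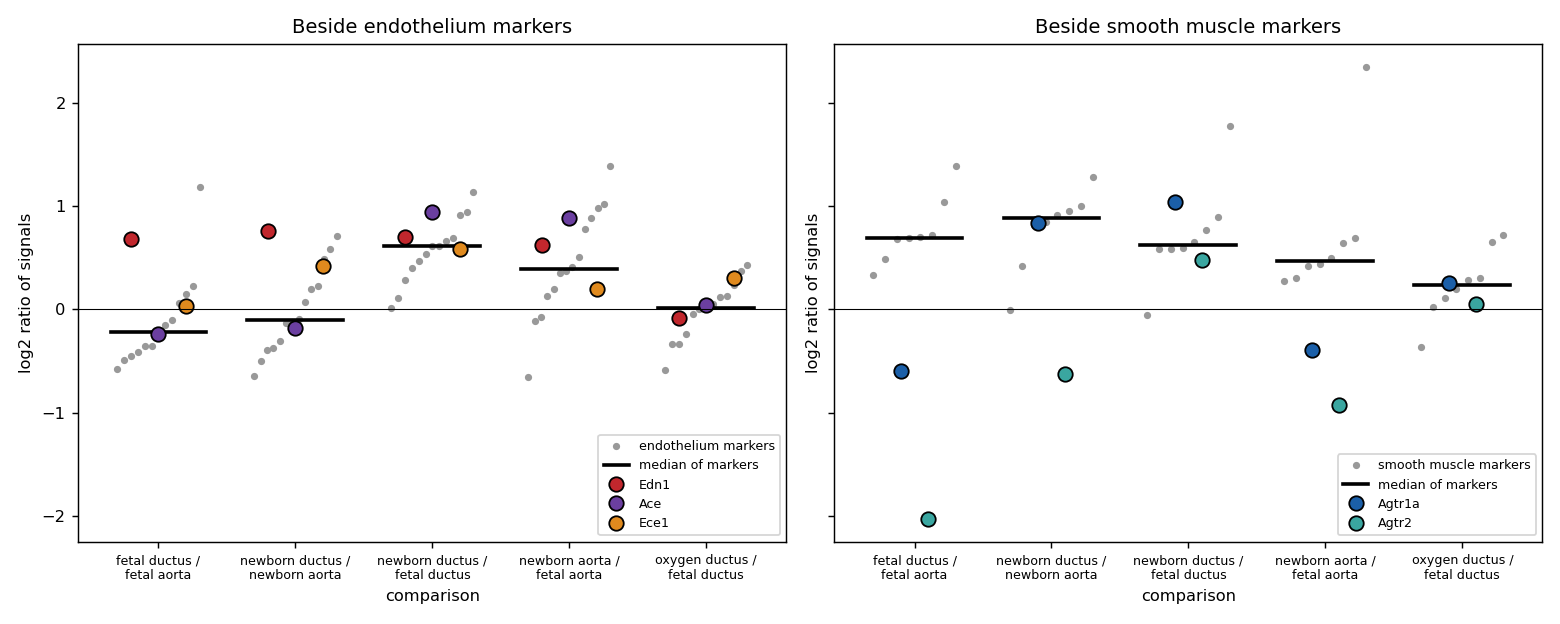
Log2 ratios in 5 comparisons of endothelial markers (left, grey points, with Edn1, Ace and Ece1 in colour) and of smooth muscle markers (right, with Agtr1a and Agtr2), at the brightest probe set of each gene; black bars are marker medians. Edn1 lies above the endothelial median between vessels (0.68 against -0.22 in the fetus), and Agtr1a lies below the smooth muscle median with birth in the aorta (-0.40 against 0.47).

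For each member the 3 genes with the most similar course over the 5 states were found among 4036 other genes, by the distance between log2 signals centred on their own mean. With 5 states and that many candidates, close profiles arise easily, and the likeness is a description. Nearest to Edn1 were Eef2k, the kinase of elongation factor 2 (distance 0.14), Plcb4, a phospholipase C of Gq-coupled receptors (0.17), and Atp6v1c1, a proton pump subunit (0.21). Plcb4 read 256 in the fetal aorta, 433 in the newborn aorta, 403 in the fetal ductus, 424 in the oxygen ductus and 652 in the newborn ductus, lowest in the fetal aorta and highest in the newborn ductus. Nearest to Ace were Lgals3, galectin-3 (0.11), Aspn, the matrix protein asporin (0.11), and H2ac18, a histone gene (0.18). Agtr1a had Ada, adenosine deaminase (0.18), Mtus1 (0.20) and Lat, an adaptor of T cells (0.21). Agtr2 had Efemp1, a fibulin of the matrix (0.40), Sult1a1, a sulfotransferase (0.56), and Emilin2, an elastic fibre protein (0.62), all farther off than the nearest genes of the other members. Those of Ece1 were Fkbp2 (0.06), C2h4orf3 (0.12) and Slc6a3 (0.13). Some of these neighbours were under the floor of their chip in a state, where the floor stands in for their signal. They were Ada (235) and Slc6a3 (146) in the fetal ductus, and Mtus1 (235) and Efemp1 (101) in the oxygen ductus.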

How the data were processed

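RNA of 5 vessel states was measured on 3 Affymetrix chip types, 1 array each. The deposited values were linear signal intensities, with MAS5 named for 4 of the 15 arrays per the submitters' processing notes. With 2% trimmed off both ends, array means were 500 to 501, so the authors had scaled them, and no further scaling was applied. Control probe sets were left out. The platform annotation names 1 gene for 18178 of 26202 probe sets, several for 391 and none for 7633. Of the 18178, 18122 matched a current gene number, with 0 symbols changed.

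Signals were floored at each chip's median over its 5 arrays, and log2 was taken. A pair was compared where at least 1 array was above the floor, and a gene was read at its probe set of highest mean signal. Limma (version 3.58.1, R 4.3.3) fitted vessel and stage on 4 arrays per chip, for the 13810 probe sets that exceeded the floor on 2 or more, with 1 residual and 5.94 to 9.83 prior degrees of freedom and Benjamini-Hochberg adjustment per chip. The residual is thus their interaction. Alternatives were floors at the 25th and 60th percentile, none (log2 of signal plus 50), quantile and median scaling, probe set means, and other filters, moderation and adjustment in limma.

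Named were all members, list genes at least 2-fold apart (at most 4 per list and comparison; other than for endothelium, smooth muscle, mast cells and fibroblasts, marker lists are given by their sums, counts or medians), and the 3 genes of most similar course among those above the floor in at least 3 states and spanning 1.5-fold. A result on the receptor signalling list is not reported here. Members and lists were chosen with earlier results of these data known. No array was replicated, so no replicate was left out.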

Additional observations from a re-analysis of the deposited data

Results flagged for a closer look

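The birth ratios of Agtr1a and Agtr2 had opposite signs in ductus and aorta, on the 1 array of each state. For Agtr1a the ductus ratio minus the aorta ratio was 1.43 (log2 1.04 against -0.40), and the signs were the same at all 4 probe sets. For Agtr2 it was 1.40 (0.48 against -0.93) at the first probe set and 1.025 at the second, with the same signs at both. These differences were not tested, since each rests on 4 arrays without replicates.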

How the results depend on the processing

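Of 290 values of single members under other settings, 277 kept their side of the threshold or moved by less than the estimated error, 10 moved more and 3 passed the threshold newly; 0 past 1.5-fold changed sign. The 3 were Ace for birth (0.91, adjusted p = 0.0335 with probe sets above the floor on all 4 arrays and 0.0379 with an intensity trend in limma) and Agtr2 for vessel (-1.33, adjusted p = 0.0241 with the trend), so the count of members past limma was 1 in each of these. Newborn against oxygen ductus had 5 members past 1.5-fold with probe set means and 1 with median scaling, against 3. With median scaling 512 of 7660 genes were higher and 1724 lower. With probe set means no share of all genes was taken. Smaller moves were from 3 to 2 between fetal vessels with no floor and with median scaling (Agtr1a lost), from 3 to 2 with birth in the aorta with no floor (Edn1 lost, 0.54), and from 3 to 4 with birth in the ductus with quantile (Ece1 gained, 0.63). Counts of probe sets past limma moved most, for vessel from 5 to 0 (lower floor, no filter), 33 (higher floor), 30 (no floor), 20 (quantile), 14 (median), 24 (all 4 arrays) and 65 (trend), and for birth from 233 to 0 (lower floor, no filter), 440 (higher floor), 356 (all 4 arrays) and 532 (trend). The cause was not tested. Median scaling also took calls higher in the ductus between fetal vessels from 45.2% to 56.4% of all. Signals near the floor, such as the fourth Agtr1a and second Agtr2 probe sets, limit what can be read there.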
